A study of Homo sapiens with 6 samples.

Results

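The lipases of neutral lipid breakdown are taken here as 10 genes, found by their gene names among the 58978 rows of the count table: PNPLA2, ABHD5, LIPE and PNPLA4 of cytosolic triacylglycerol lipolysis, MGLL, ABHD6 and ABHD12 of monoacylglycerol hydrolysis, and LIPA, CES2 and NCEH1, esterases of the lysosome and the endoplasmic reticulum. All 10 had a row and all 10 passed the filter on low counts. They were measured by RNA-seq in HT29, an established cell line from a human colorectal adenocarcinoma, in 3 libraries of cells with a short hairpin RNA that knocks down FITM2 (shFITM2) and 3 libraries of cells with a control hairpin (shCTRL). Both groups are labelled as untreated and share the parental line and culture medium, and the labels give the control cells a wild-type genotype. How many hairpins were used, and whether the cells are a clone or a pool, is not given in the sources used here. No label says that replicates are separate cultures, so the p-values refer to the spread among these 6 libraries, which could be purely technical.

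Cells store triacylglycerol and cholesteryl esters in lipid droplets, which bud from the endoplasmic reticulum with the help of FITM2, a membrane protein of that organelle. In cytosolic lipolysis, PNPLA2 (adipose triglyceride lipase) removes the first fatty acid of triacylglycerol with its co-activator ABHD5, LIPE (hormone-sensitive lipase) acts on diacylglycerol, and MGLL (monoacylglycerol lipase) releases the last fatty acid. In the lysosome, LIPA (lysosomal acid lipase) takes droplets and lipoprotein lipids apart at acid pH, and esterases of the endoplasmic reticulum such as NCEH1 and CES2 act on cholesteryl and acylglycerol esters.

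The knockdown was visible in the targeted gene. FITM2 stood at 4.83, 5.98 and 4.95 CPM (read counts scaled to a common library size) in shFITM2 and at 13.25, 10.55 and 10.44 CPM in shCTRL, a log2 fold change of -1.12 ± 0.16 (SE; edgeR quasi-likelihood test, Benjamini-Hochberg adjusted p = 0.000242). Libraries held 16964075 to 18855731 counts. All 10 markers of colonic epithelium passed the filter, with summed levels of 13240 to 13970 CPM in shFITM2 and 9742 to 11740 CPM in shCTRL. KRT8, with means of 8384 CPM in shFITM2 and 6142 CPM in shCTRL, made up most of the sums. CDX1 (0.45 CPM in shFITM2, 0.84 CPM in shCTRL) and CDX2 (1.72 CPM in shFITM2, 0.82 CPM in shCTRL) were near the floor. By group 6 of the 10 were called higher and 1 lower, beside 24.2% and 24.5% of all genes tested. With the GC offset described below 3 were higher and 2 lower, beside 11.8% and 17.4% of genes. Their part in the lipase results was not tested. Of 7 adipocyte markers 5 had no read (ADIPOQ, LEP, CIDEA, FABP4 and LPL), and the sum was 1.76 to 2.89 CPM in shFITM2 and 1.27 to 1.76 CPM in shCTRL. Of 10 markers of other cells 8 were under 1 CPM in every library, with sums of 1.95 to 2.75 CPM in shFITM2 and 1.86 to 3.34 CPM in shCTRL. Across genes, the fold changes tracked transcript GC content (Spearman rho 0.744, taken over 14635 genes that are no independent replicates). The slope of a library's log2 deviation per 10 points of GC was 0.18 to 0.26 in shFITM2 and -0.34 to -0.06 in shCTRL, where replicate 3, at -0.06, stood between the other shCTRL libraries and shFITM2. GC content and group cannot be told apart as sources of this trend, so the fold changes below are also given from a second fit with a GC offset, which removes from each library the trend of its deviations on transcript GC content, and with it whatever change in the cells runs along GC. The RNA is from bulk cultures, in which fewer cells of a type and less RNA per cell cannot be told apart.

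The lipase set split both ways. In the fit by group, 5 members rose (PNPLA2, LIPE, MGLL, ABHD12 and CES2), 4 fell (ABHD5, ABHD6, LIPA and NCEH1) and PNPLA4 did not pass the test, at adjusted p under 0.05 over all 14809 genes tested. Of all genes tested 48.7% were called, 24.2% higher and 24.5% lower. The median log2 fold change of the members was 0.15, beside -0.0002 over all genes tested. The members called higher had transcripts of 56.5% to 64.9% GC and those called lower of 37.5% to 52.4%. With the GC offset, PNPLA2 stayed higher, MGLL, ABHD6, LIPA and NCEH1 were lower and 5 members were not called, where 29.2% of 14635 genes were called, 11.8% higher and 17.4% lower. The median of the members was then 0.03, beside -0.03 over all genes. An offset from the mean GC of all coding transcripts of a gene called PNPLA2 and ABHD12 higher and ABHD6, LIPA and NCEH1 lower, where 29.3% of genes were called, 11.8% higher and 17.5% lower. PNPLA2, ABHD6, LIPA and NCEH1 were thus called in the same direction in all 3 fits, 1 higher and 3 lower. Of 14635 genes 15.2% were so called, 6.81% higher and 8.43% lower. The fits share the same libraries and are no separate tests. PNPLA2 has 1 coding transcript, so both offsets used the same GC content for it, and for LIPA they used 42.8% and 42.4%. For these genes the offset from the mean could hardly differ from the other.

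**Figure D1:**
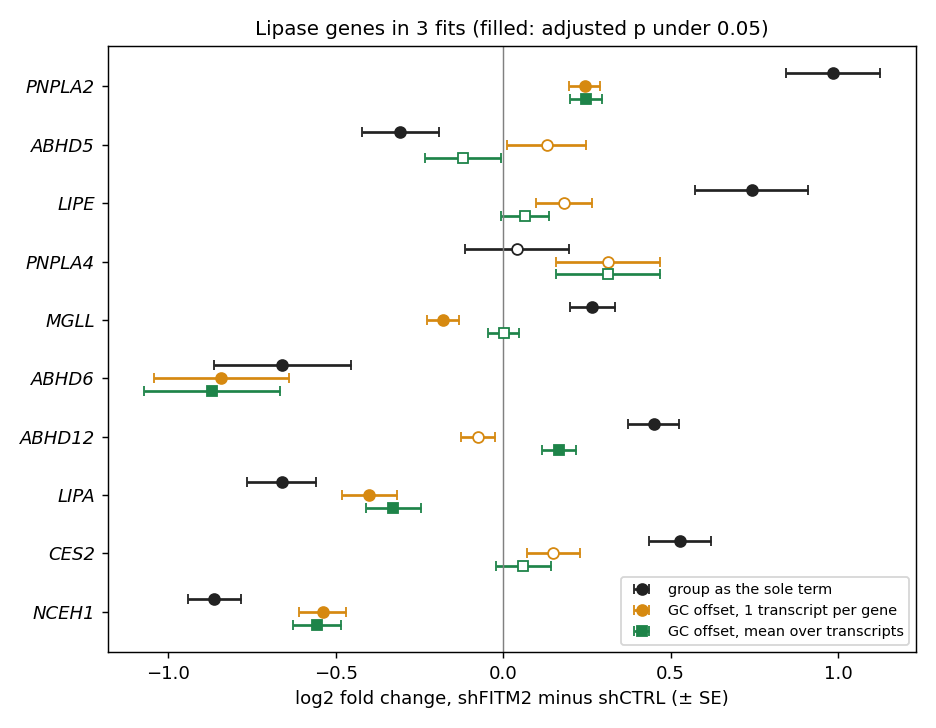
Log2 fold changes (shFITM2 minus shCTRL, ± SE) of the 10 genes in the fit by group, with the GC offset from 1 transcript per gene, and with the GC offset from the mean over coding transcripts, filled where adjusted p is under 0.05. PNPLA2 is right of 0 and ABHD6, LIPA and NCEH1 left of 0 in all 3 fits, while MGLL and ABHD12 lie at -0.18 and -0.08 with the offset from 1 transcript. In the fit by group both are right of 0, and with the offset from the mean ABHD12 is right of 0 and MGLL at 0.002, not called.

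PNPLA2, the lipase of the first step, showed the highest rise of the set in the fit by group. It stood at 247.8, 259.5 and 238.9 CPM in shFITM2 and at 115.6, 104.5 and 157.3 CPM in shCTRL. Every shFITM2 library lay above every shCTRL library, and shCTRL replicate 3 was the highest of its group. It averaged 248.8 ± 10.3 CPM in the shFITM2 group and 125.8 ± 27.8 CPM in the shCTRL group (SD, n = 3 each), a log2 fold change of 0.98 ± 0.14 (SE; edgeR adjusted p = 0.000803). PNPLA2 has the transcript richest in GC among the members, at 64.9%, and the 439 tested genes within 1 point of it had a median log2 fold change of 0.71. Of those genes 76.5% lay below PNPLA2, and their 90th percentile was 1.28, above its value. After the GC offset its levels were 183.4, 198.7 and 190.9 adjusted CPM in shFITM2 and 162.3, 158.8 and 162.9 in shCTRL, again without overlap, and its log2 fold change was 0.24 ± 0.05 (edgeR adjusted p = 0.00112). The size thus depended on the offset and the call did not. PNPLA2 was called higher under all 23 alternatives, with log2 fold changes of 0.21 to 1.17.

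ABHD5, which activates PNPLA2, moved the other way in the fit by group. It had 10.81, 9.83 and 10.20 CPM in shFITM2 and 13.35, 12.49 and 12.32 CPM in shCTRL, so that the groups did not overlap. The log2 fold change was -0.31 ± 0.11 (edgeR adjusted p = 0.0431). This call had the highest adjusted p of the 9 and was lost on leaving out any library other than shCTRL replicate 3 (adjusted p = 0.064 to 0.145) and with the GC offset, where the value was 0.13 ± 0.12 (adjusted p = 0.457). At 37.5%, the transcript used for ABHD5 is the poorest in GC of the set, but its 7 coding transcripts average 46.0%. With the offset from that mean ABHD5 had the direction of the fit by group and was not called. The direction of its GC-adjusted value therefore depended on the transcript taken to stand for the gene. A stretch of 170 exonic bases, 2.25% of ABHD5, also belongs to ANO10 on the opposite strand, which had 960 reads beside 1234 of ABHD5, and the strand setting of the counting is not given in the sources used here.

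LIPE, the diacylglycerol lipase, had 82.2, 80.9 and 82.4 CPM in shFITM2 and 44.6, 38.4 and 63.9 CPM in shCTRL. The 3 shFITM2 libraries lay close together, above a wider control group in which replicate 3 was again the highest. Its log2 fold change was 0.74 ± 0.17 (edgeR adjusted p = 0.00813). Under the GC offset the groups overlapped and the value was 0.18 ± 0.08 (adjusted p = 0.119). Without shCTRL replicate 3 it was called in that fit too, at 0.29 (adjusted p = 0.000263). LIPE was called higher under 14 of the 23 alternatives, with log2 fold changes of 0.07 to 0.97. Its 7 coding transcripts average 63.7% GC, against 60.9% of the one used, and with the offset from that mean LIPE was not called. An antisense gene, LIPE-AS1, covers 500 exonic bases of LIPE (9.60%) with 93 reads beside 6944 of LIPE.

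PNPLA4, a patatin-family enzyme reported to act on triacylglycerol and retinyl esters, had 5.76, 5.69 and 6.43 CPM in shFITM2 and 5.30, 6.27 and 5.81 CPM in shCTRL. The groups overlapped, and the log2 fold change was 0.04 ± 0.16 (edgeR adjusted p = 0.846). In unadjusted CPM it was the sole member with overlapping groups. Of all tested genes 59% had groups that did not overlap, 29.1% with shFITM2 above and 29.9% with shFITM2 below. After the GC offset its levels were 6.45, 6.27 and 6.91 adjusted CPM in shFITM2 and 4.75, 5.50 and 5.58 in shCTRL, with every shFITM2 library above. Its log2 fold change was then 0.31 ± 0.16 (edgeR adjusted p = 0.149), the highest value of the 10 in that fit, and not called. In those adjusted values it was ABHD5, LIPE, ABHD12 and CES2 whose groups overlapped. The 59% is for unadjusted CPM. No such share over all genes was taken for adjusted values, so nothing is read from how many members overlap there. PNPLA4 was called under none of the 23 alternatives, at log2 fold changes of -0.02 to 0.35.

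**Figure D2:**
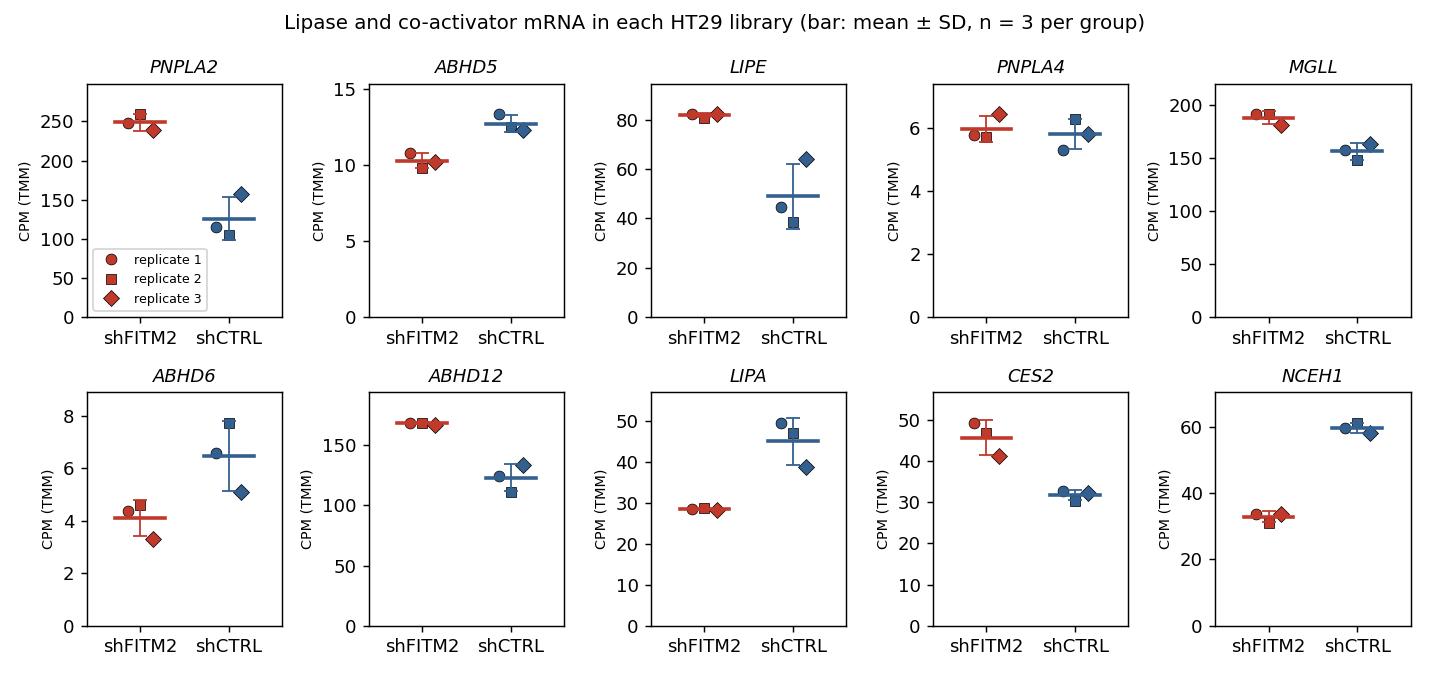
CPM of each of the 10 genes in each library, 1 panel per gene on its own axis from 0, with shFITM2 left of shCTRL and bars for the mean ± SD of 3 libraries. The groups do not overlap except for PNPLA4, and the shFITM2 libraries of PNPLA2 lie at 238.9 to 259.5 CPM above shCTRL libraries at 104.5 to 157.3 CPM.

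Of the 3 monoacylglycerol hydrolases, ABHD6 fell and MGLL and ABHD12 rose in the fit by group. ABHD6, a membrane enzyme that cleaves monoacylglycerols including the endocannabinoid arachidonoylglycerol, had 4.39, 4.6 and 3.30 CPM in shFITM2 and 6.57, 7.74 and 5.10 CPM in shCTRL, from 56 to 80 reads per shFITM2 library and 87 to 143 per shCTRL library. All shFITM2 libraries lay under all shCTRL libraries. The log2 fold change was -0.66 ± 0.20 (edgeR adjusted p = 0.0188), and the GC offset gave -0.84 ± 0.20 (adjusted p = 0.00508). The 958 genes within 1 point of its 52.4% GC had a median of 0.16. The call by group was lost without shFITM2 replicate 3 (-0.53, adjusted p = 0.0833), without shCTRL replicate 1 (-0.65, adjusted p = 0.0532) and without shCTRL replicate 2 (-0.52, adjusted p = 0.0687).

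MGLL, the enzyme of the last step, ranked after PNPLA2 and ABHD12 in level per length and had 191.5, 191.6 and 180.8 CPM in shFITM2 and 157.4, 148.0 and 163.5 CPM in shCTRL. The groups did not overlap, and the log2 fold change was 0.27 ± 0.07 (edgeR adjusted p = 0.00680). Genes within 1 point of its GC content had a median of 0.41, above that value. Under the GC offset the direction turned, at 160.1, 163.5 and 159.3 adjusted CPM in shFITM2 and 189.4, 184.8 and 173.0 in shCTRL, and the log2 fold change was -0.18 ± 0.05 (adjusted p = 0.0105). That call was lost without shFITM2 replicate 1 (adjusted p = 0.0570) and without shCTRL replicate 1 (adjusted p = 0.0552). MGLL has 11 coding transcripts with a mean GC of 55.0%, against 58.0% of the one used, and an offset from that mean gave 0.002 (adjusted p = 0.978). Whether MGLL departed from the GC trend therefore depended on the transcript taken to stand for the gene.

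ABHD12, a lipase of lysophosphatidylserine that also hydrolyses monoacylglycerols, had 168.7, 168.8 and 167.3 CPM in shFITM2 and 124.6, 111.6 and 133.5 CPM in shCTRL. All shFITM2 libraries were higher, and the log2 fold change was 0.45 ± 0.08 (edgeR adjusted p = 0.000671). Its GC-adjusted value was -0.08 ± 0.05 with overlapping groups (adjusted p = 0.293), and without shCTRL replicate 3 that value was -0.11 (adjusted p = 0.0495). Its 6 coding transcripts average 55.4% GC against 59.8% of the one used, and with the offset from that mean ABHD12 was higher, at 0.17 (adjusted p = 0.0220).

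**Figure D3:**
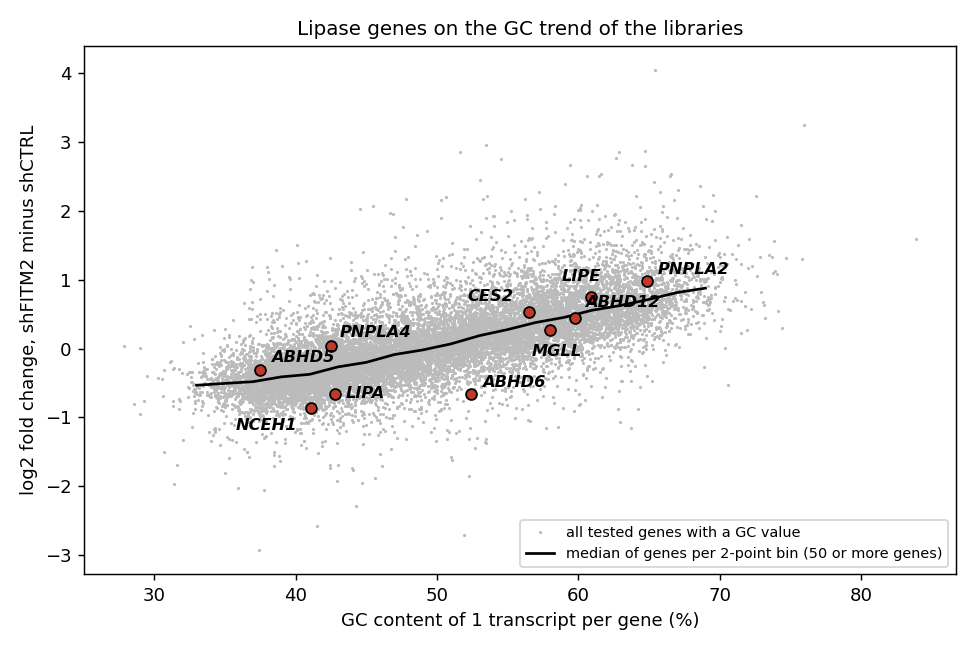
Log2 fold change of every tested gene against the GC content of 1 transcript per gene (%), with the 10 lipase genes named. The 5 members called higher lie at 56.5% to 64.9% GC and the 4 called lower at 37.5% to 52.4%, and ABHD6 at -0.66 lies under the median of 0.16 of genes of like GC content.

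The esterases of the lysosome and the endoplasmic reticulum held the most stable falls. LIPA, the acid lipase of the lysosome, had 28.4, 28.7 and 28.3 CPM in shFITM2 and 49.5, 47.0 and 38.6 CPM in shCTRL. The shFITM2 libraries differed little from each other, and every one lay under the lowest control, replicate 3. The log2 fold change was -0.66 ± 0.10 (edgeR adjusted p = 0.000417). After the GC offset the levels were 31.7, 31.5 and 30.3 adjusted CPM in shFITM2 and 44.5, 41.4 and 37.2 in shCTRL, again without overlap, and the log2 fold change was -0.40 ± 0.08 (adjusted p = 0.00173). LIPA was called lower under all 23 alternatives, between -0.77 and -0.33. It shares 65 exonic bases (1.32%) with IFIT2 on the opposite strand, which had 957 reads beside 3957 of LIPA.

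NCEH1, a cholesteryl ester hydrolase of the endoplasmic reticulum, showed the deepest fall of the set in the fit by group. It stood at 33.8, 31.0 and 33.8 CPM in shFITM2 and at 59.7, 61.2 and 58.3 CPM in shCTRL. The gap between the groups was wide beside the spread within each, with means of 32.9 ± 1.62 CPM for shFITM2 and 59.7 ± 1.49 CPM for shCTRL (SD, n = 3 each). The log2 fold change was -0.86 ± 0.08 (edgeR adjusted p = 3.79e-05), where the 1269 genes within 1 point of its 41.1% GC had a median of -0.37. With the GC offset the levels were 38.7, 34.7 and 36.8 adjusted CPM in shFITM2 and 52.6, 52.2 and 55.5 in shCTRL, and the log2 fold change was -0.54 ± 0.07 (adjusted p = 4.32e-05). NCEH1 was called lower under all 23 alternatives, between -0.89 and -0.50. No exon of another gene overlaps it in the annotation.

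CES2, a carboxylesterase abundant in intestine and liver, moved opposite to LIPA and NCEH1 in the fit by group, with 49.4, 46.8 and 41.2 CPM in shFITM2 and 32.6, 30.3 and 32.3 CPM in shCTRL. The groups did not overlap, and the log2 fold change was 0.53 ± 0.09 (edgeR adjusted p = 0.000843). Under the GC offset they overlapped, at 0.15 ± 0.08 (adjusted p = 0.177). For each of the 9 called members the exact two-sided permutation test over libraries gave p = 0.1, the smallest that 3 against 3 allows, and for PNPLA4 it gave p = 0.7.

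Set against each other per length, as CPM per kilobase of gene length, PNPLA2 and ABHD12 led in both groups. PNPLA2 was first in shFITM2, at 64.7 ± 2.69 ahead of ABHD12 at 49.1 ± 0.24, and second in shCTRL, at 32.7 ± 7.24 beside ABHD12 at 35.9 ± 3.21 (SD, n = 3). In shCTRL these ranges overlapped. MGLL and LIPE followed in shFITM2, at 15.9 ± 0.53 and 15.7 ± 0.16, and did not differ beyond their spread, while in shCTRL MGLL stood at 13.2 ± 0.66 beside NCEH1 at 12.4 ± 0.31. LIPE (9.41 ± 2.56) and LIPA (9.17 ± 1.161) could not be separated in shCTRL. CES2 (8.56 ± 0.78), NCEH1 (6.84 ± 0.34) and LIPA (5.80 ± 0.04) came next in shFITM2. PNPLA4, ABHD5 and ABHD6 were the lowest of both groups, at 1.73, 1.36 and 1.14 in shFITM2 and 1.68, 1.69 and 1.80 in shCTRL, with overlapping ranges in shCTRL. Of the summed level of the 10 genes, PNPLA2 made up 37.9% in shFITM2 and 26.2% in shCTRL, NCEH1 4.01% in shFITM2 and 10.1% in shCTRL, and LIPA 3.40% in shFITM2 and 7.49% in shCTRL. These neighbours depend on the length used. Per kilobase of 1 transcript in place of the gene length, MGLL was at 38.0 and LIPE at 21.5 in shFITM2, while in shCTRL MGLL was at 31.6, LIPA at 16.2, LIPE at 12.9 and NCEH1 at 12.7. PNPLA2 (102.5 in shFITM2, 51.8 in shCTRL) and ABHD12 (79.5 in shFITM2, 58.2 in shCTRL) still led, and LIPA ranked above NCEH1 in both groups.

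**Figure D4:**
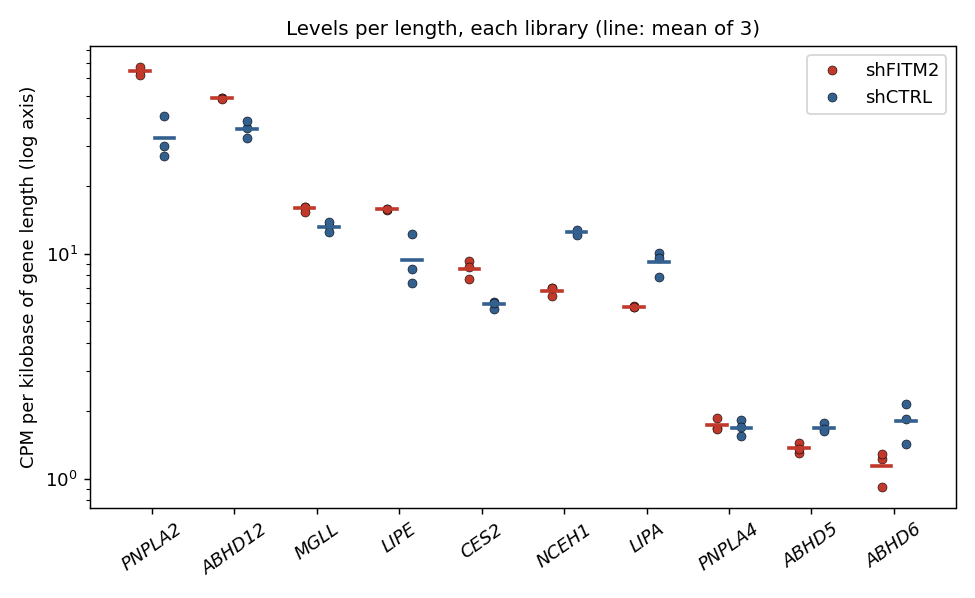
Level per length of the 10 genes in each library (CPM per kilobase of gene length, log axis, line at the mean of 3), with shFITM2 left of shCTRL for each gene. PNPLA2 and ABHD12 are the highest genes of both groups, at 64.7 and 49.1 in shFITM2 and 32.7 and 35.9 in shCTRL, and PNPLA4, ABHD5 and ABHD6 the lowest.

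Position and promoter sequence were not used to choose the members. MGLL, NCEH1, ABHD5 and ABHD6 lie on chromosome 3, the others on 6 different chromosomes. On GRCh38, PNPLA2 spans chr11:818902-825573 (plus strand), ABHD6 chr3:58237506-58295693 (plus), LIPA chr10:89213569-89414557 (minus) and NCEH1 chr3:172630249-172711218 (minus). Promoter windows of 250 bases before to 50 after an annotated start were matched from RefSeq (GRCh38.p14) for 9 of the 10 genes, 15 windows in all; MGLL was not matched. A GC box (GGGCGG) was in 10 of the 15 windows, beside 45.0% of 35116 windows of all genes, and a CCAAT box (CCAAT) in 6, beside 34.6%. Several windows belong to 1 gene, and those of the 3 ABHD5 starts overlap and hold some of the same boxes. None of the 15 held the E-box CACGTG (7.26% of all windows), the forkhead motif GTAAACA (3.42%) or TATAAA (11.5%), all searched on both strands. These are letter matches in few and short windows, from which no difference to other genes is read, and they say nothing of what binds there. For 12 of the 15 windows the last 30 bases were found in a GENCODE 29 transcript of the gene. Those of PNPLA2 and of LIPA starts 1 and 3 were not, so the windows printed below for PNPLA2 and LIPA are among them. The 250 bases before the start are shown for the 4 genes called in all 3 fits, 5′ to 3′ on the gene's strand, with GC and CCAAT boxes in capitals, written as CCGCCC or ATTGG where the motif is on the other strand.
PNPLA2, chr11:818664-818913, plus strand: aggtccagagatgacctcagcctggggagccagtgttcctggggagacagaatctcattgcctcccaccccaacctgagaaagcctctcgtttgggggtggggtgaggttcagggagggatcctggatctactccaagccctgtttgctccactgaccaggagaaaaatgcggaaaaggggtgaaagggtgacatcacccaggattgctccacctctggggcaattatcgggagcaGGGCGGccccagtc
NCEH1, chr3:172711068-172711317, minus strand: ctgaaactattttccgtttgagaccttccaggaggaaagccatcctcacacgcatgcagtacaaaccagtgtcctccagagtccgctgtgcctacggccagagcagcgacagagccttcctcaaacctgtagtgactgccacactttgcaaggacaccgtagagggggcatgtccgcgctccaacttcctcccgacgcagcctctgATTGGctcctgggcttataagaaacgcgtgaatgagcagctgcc
LIPA, start 3 of 3, chr10:89251776-89252025, minus strand: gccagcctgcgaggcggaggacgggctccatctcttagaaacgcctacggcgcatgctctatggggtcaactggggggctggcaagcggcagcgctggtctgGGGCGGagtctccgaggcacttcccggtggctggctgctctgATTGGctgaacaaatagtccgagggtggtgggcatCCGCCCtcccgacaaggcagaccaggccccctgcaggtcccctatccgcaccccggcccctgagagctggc
ABHD6, chr3:58237542-58237791, plus strand: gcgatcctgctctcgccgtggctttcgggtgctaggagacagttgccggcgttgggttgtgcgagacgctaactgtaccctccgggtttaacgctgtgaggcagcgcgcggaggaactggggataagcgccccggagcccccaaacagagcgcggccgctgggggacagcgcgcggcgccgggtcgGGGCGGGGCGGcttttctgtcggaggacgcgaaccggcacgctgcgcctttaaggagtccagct
PNPLA2, the gene that rose, has 1 GC box, 14 bases before its start. NCEH1 has a CCAAT box on the opposite strand, 44 bases before. This LIPA window, 1 of 3 annotated starts, holds GC boxes 148 and 71 bases before and a CCAAT box 106 before, and in ABHD6 the pair of GC boxes at 64 and 59 bases overlap by 1 base.

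Around the lipases, 83 other genes of neutral lipid breakdown were listed by role, and 63 passed the filter on low counts. Of these 24 rose and 11 fell in the fit by group, with a median log2 fold change of 0.27, and 9 were higher and 15 lower with the GC offset, with a median of 0.01; 13 were called in the same direction in both fits and 4 in opposite directions, where 17.9% and 2.15% of 14635 genes were. Of 8 tested brakes and droplet gatekeepers, 2 were higher by group and none with the offset. PLIN3, a droplet coat protein, was at 49.6 ± 3.15 CPM in shFITM2 and 32.2 ± 5.64 CPM in shCTRL (log2 fold change 0.62, edgeR adjusted p = 0.00130; with the GC offset 0.17, adjusted p = 0.162, and 0.23, adjusted p = 0.0219, when shCTRL replicate 3 was also left out). G0S2, an inhibitor of PNPLA2, was at 2.12 ± 0.51 CPM in shFITM2 and 1.23 ± 0.46 CPM in shCTRL (adjusted p = 0.0699; with the GC offset 0.40, adjusted p = 0.380), and was called higher only on leaving out shCTRL replicate 3 (1.13, adjusted p = 0.00873). PLIN2, a coat protein of droplets in most cells, was at -0.31 (adjusted p = 0.0664, and 0.0492 with no filter on low counts; with the GC offset -0.33, adjusted p = 0.0507), and without shCTRL replicate 3 it was called lower, at -0.43 (adjusted p = 0.001159).

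Among relatives of the members, 2 of 4 other patatin-like phospholipases rose by group, and 1 was higher and 1 lower with the GC offset. PNPLA6, a lysophospholipase that rose by group, turned to -0.25 with the GC offset (edgeR adjusted p = 0.0178), a call lost without any 1 shFITM2 library or without shCTRL replicate 1 (adjusted p = 0.0529 to 0.106). Of 11 other acylglycerol and neutral lipid hydrolases 6 rose and 2 fell by group, and 1 was higher and 2 lower with the GC offset. The droplet-bound hydrolase LDAH fell to 21.3 ± 0.87 CPM in shFITM2, against 36.7 ± 2.98 CPM in shCTRL (log2 fold change -0.79, edgeR adjusted p = 0.000117; with the GC offset -0.50, adjusted p = 0.000237), and was called lower under all 23 alternatives. Of 8 lipases acting outside the cell, 2 were tested. LIPG, endothelial lipase, was lower by group at -0.44 and LIPH, a phosphatidic acid phospholipase, higher at 0.31 (edgeR adjusted p = 0.000581 and 0.0196). Their GC-adjusted values were -0.24 for LIPG (adjusted p = 0.0108, and 0.0556 and 0.0612 without shFITM2 replicate 2 or 3) and 0.42 for LIPH (adjusted p = 0.000858). LIPH lost its call by group without any 1 of the shFITM2 libraries (adjusted p = 0.0547 to 0.0832).

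Of 15 tested genes of hormonal control of lipolysis, 4 rose and 3 fell by group, a share close to the 48.7% of all genes, and 2 were higher and 3 lower with the GC offset. PRKAR2A, a regulatory subunit of protein kinase A, fell to 53.8 ± 1.88 CPM in shFITM2, against 81.1 ± 5.63 CPM in shCTRL (log2 fold change -0.59, edgeR adjusted p = 0.000184; with the GC offset -0.45, adjusted p = 7.58e-05). PRKACA was higher by group at 0.62 and with the offset at 0.26 (edgeR adjusted p = 0.00167 and 0.0298). Its call with the offset was lost without any 1 library other than shCTRL replicate 3 (adjusted p = 0.0578 to 0.125). AKT2 and AKT1 were higher by group, at 0.57 and 0.63 (edgeR adjusted p = 0.000310 and 0.000954), and not called with the offset (adjusted p = 0.0668 and 0.0694). With the offset of GC and length both were called higher, at 0.14 and 0.18 (edgeR adjusted p = 0.0304 and 0.0428). So they were with the GC offset without shCTRL replicate 3 (edgeR adjusted p = 0.0125 and 0.00369). Each was called higher under 15 of the 23 alternatives. Of 13 transcriptional regulators of lipase genes 9 rose and 2 fell by group, and 2 rose and 4 fell with the offset. FOXO4, a forkhead factor, rose to 37.6 ± 2.00 CPM in shFITM2, against 12.7 ± 1.83 CPM in shCTRL (log2 fold change 1.57, edgeR adjusted p = 1.33e-05; with the GC offset 1.22, adjusted p = 3.33e-07). FOXO1, a forkhead factor known to induce PNPLA2 in adipocytes, fell to 44.4 ± 2.34 CPM in shFITM2, against 60.2 ± 1.50 CPM in shCTRL (-0.44, adjusted p = 0.000901; with the GC offset -0.34, adjusted p = 0.00112). TFEB, a regulator of lysosomal genes, rose by 0.90 on the log2 scale by group and by 0.48 with the offset (edgeR adjusted p = 0.000332 and 0.00438), and was not called with the offset from the mean over transcripts (0.24, adjusted p = 0.122).

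None of the 10 tested genes for the fate of released fatty acids and lysosomal sterol rose by group and 3 fell, while 2 were higher and 4 lower with the offset. ACSL4 and ACSL3, which activate fatty acids to acyl-CoA, were at 72.2 ± 4.48 and 185.9 ± 7.15 CPM in shFITM2 and at 125.2 ± 10.5 and 272.5 ± 25.3 CPM in shCTRL (log2 fold changes -0.79 and -0.55, edgeR adjusted p = 5.99e-05 and 0.000243). Their GC-adjusted values were -0.35 and -0.13 (adjusted p = 0.000141 and 0.0346). The ACSL3 call with the offset was lost without any 1 library other than shCTRL replicate 3 (adjusted p = 0.0703 to 0.152). FABP5, a fatty acid carrier, fell by 0.45 on the log2 scale by group and by 0.43 with the offset (edgeR adjusted p = 0.00306 and 0.00195), and was called lower under all 23 alternatives. NPC2 went the other way, at 0.27 by group (edgeR adjusted p = 0.0640, not called) and 0.47 with the offset (adjusted p = 0.00534). The offset from the mean over transcripts gave 0.24 for NPC2 (adjusted p = 0.0906).

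**Figure D5:**
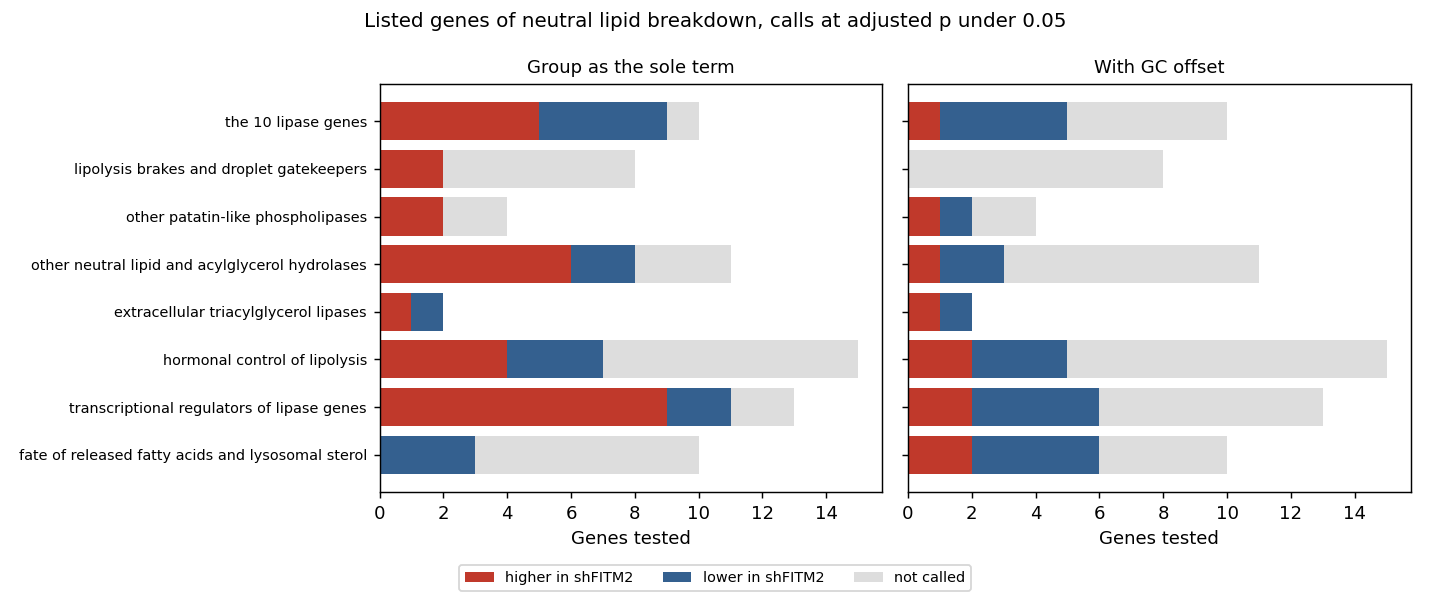
Number of tested genes per list called higher in shFITM2, lower in shFITM2 or not called, in the fit by group and with the GC offset. The list of transcriptional regulators goes to 2 higher and 4 lower with the offset, against 9 higher and 2 lower in the fit by group, and the brakes hold no called gene with the offset. Over all genes tested, 24.2% were higher and 24.5% lower by group, and 11.8% and 17.4% with the offset.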

How the data were processed

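The authors deposited raw read counts per gene for the 6 libraries in 1 table, as whole numbers whose totals differ between libraries. Per the labels' protocols, total RNA came from a Trizol extraction and a directional NEBNext kit was used for the libraries. The submitters' processing notes name hg19 and the tools featureCounts 1.5.0-p3, HISAT2 2.0.5, DESeq2 1.16.1 and StringTie 1.3.3b. The table's positions are those of GRCh38, since all 58735 rows with an Ensembl identifier have the start, end and strand of GENCODE release 29. The handling of strand and of reads that map to several places is not given in the sources used here.

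Sample titles gave the group and the replicate number. Counts were tested with edgeR 4.0.16 (limma 3.58.1, R 4.3.3): TMM scaling, the edgeR expression filter (minimum count 10, total 15; 14809 genes), a robust quasi-likelihood F-test on group, and adjustment by Benjamini-Hochberg over the genes tested, with calls at 0.05. Fold changes are shFITM2 minus shCTRL. The permutation test used log2 CPM with a prior count of 2. Replicates of a group differed by a chi-square per gene of 2.35 to 28.6, and the highest values, 20.2 and 28.6, were those of the pairs with shCTRL replicate 3. Each library was taken as 1 sample. This spread can be technical and does not show that the libraries are separate cultures.

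For the GC offset, the log2 deviations of a library were smoothed on transcript GC content (1 GENCODE transcript per gene; spline with 6 degrees of freedom) and passed to edgeR as a gene-by-library offset for 14635 genes (98.8% of those tested). An offset from the mean GC over coding transcripts was chosen after seeing the data. The other alternatives were DESeq2 size factors, library totals, no filter, a mean of at least 1 CPM, the Wald test of DESeq2 1.42.0, limma-voom, the replicate number as a block, an offset of GC and length, and each library left out in turn. The fit was tested on simulated data.

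The members and lists were chosen with earlier results of these data known. Named genes are FITM2, the 10 members, and from each list up to 4 genes with the smallest p in the fit by group. Some that the rule names are given mainly as counts. Among these, PLIN4, PNPLA7, DAGLA, DDHD1, FAAH and NR1H2 were called by group, and none kept that call with the GC offset. The genes printed with values therefore lean to those that kept their call. No set test was run.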

Additional observations from a re-analysis of the deposited data

How the results depend on the processing

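The 9 called members kept their direction under every scaling, filter and other test, and under each library left out, in the fit by group. With the GC offset 4273 genes, 1 higher member and 9 higher listed genes were called. ABHD5 (0.13), MGLL (-0.18) and ABHD12 (-0.076) changed sign there, as did PLIN4 (-0.044), PNPLA6 (-0.25), PNPLA8 (0.27) and FAAH (-0.25). Against that offset, the one from the mean over transcripts turned ABHD12 (0.17) and left MGLL near 0 (0.0022, edgeR adjusted p = 0.978). ABHD5 turned back as well and was not called, and all 9 called members had their direction of the fit by group there. The offset from the mean called 2 members and 5 listed genes higher. With 1 library left out, 2 to 4 members were called lower by group (2 without shFITM2 replicate 3 or shCTRL replicate 1 or 2). Together with the GC offset this gave 2806 genes (without shFITM2 replicate 1) to 5615, 1 to 2 members higher (2 without shCTRL replicate 3, LIPE being the added one), and 8 to 18 listed genes lower (8 and 9 without shFITM2 replicates 3 and 2) against 15. Libraries with the same replicate number did not deviate together (correlations of -0.07 to -0.01, and 0 of 6 libraries correlated best with their own number). With 3 libraries per group these correlations cannot exclude a pairing, and no label says whether the numbers pair libraries. The replicate block gave 6729 calls and ended the call of ABHD5 (adjusted p = 0.0787) and no other member's. ABHD5 was also lost without a filter (adjusted p = 0.126) and under the DESeq2 Wald test (adjusted p = 0.103). Levels per length moved in 17 cases with the transcript length. Except where stated, the cause of a change between fits was not tested.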

Other observations

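Ratios of members within a library, per length, are given as values. PNPLA2 stood at 45.0, 51.8 and 46.0 times ABHD5 in shFITM2 and at 17.0, 16.4 and 25.1 times in shCTRL, without overlap. PNPLA2 stood at 22.6, 24.8 and 35.1 times its inhibitor G0S2 in shFITM2 and at 25.9, 25.6 and 20.1 times in shCTRL, with overlap. MGLL stood at 13.2, 12.6 and 16.6 times ABHD6 in shFITM2 and at 7.26, 5.80 and 9.70 times in shCTRL. The ratio of LIPE to PNPLA2 was 0.24 ± 0.01 in shFITM2 and 0.29 ± 0.01 in shCTRL (SD, n = 3 each), and that of NCEH1 to LIPE was 0.44, 0.41 and 0.44 in shFITM2 and 1.45, 1.73 and 0.99 in shCTRL. These ratios carry the difference in GC content between the genes and have no GC offset.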
